A study of Homo sapiens with 4 samples.

Results

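SLC31A1, ABCC1, ABCC5 and LRRC8A encode membrane transport proteins named in connection with the uptake or efflux of platinum drugs. Their m6A peaks were taken from the peak lists of a cisplatin-sensitive and a cisplatin-resistant lung cancer line. The members were the rows of either list whose gene name was one of these 4 symbols, and the 4 genes were among 7952 genes with a peak in either list. They had 30 of the 32069 distinct peaks of the resistant line A549/DDP and 28 of the 27319 distinct peaks of A549. A distinct peak is a set of rows with the same position, strand and exon blocks, whichever transcripts they were listed on.

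m6A is a methyl mark on adenosines inside messenger RNA. MeRIP-seq enriches RNA fragments that bind an m6A antibody, and a peak marks a part of the transcript over-represented in that pull-down relative to the untreated fragments, the input. The cisplatin-sensitive cells were A549, an established human line of lung adenocarcinoma, and the cisplatin-resistant cells were A549/DDP. Both were grown in DMEM with serum, and 1 immunoprecipitated and 1 input library per line gave 4 libraries in all. The labels name no drug in the culture medium. The sources used here do not give how A549/DDP was derived or whether it is a clone.

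Each group was a single library, so differences between the lines have no replicate check and were not tested. The lists hold neither read counts nor expression, so depth was unknown, and a missing peak can mean less of the transcript or less of the mark, which cannot be told apart. The fold enrichment and the p of a peak are the authors' values. They describe a peak within its own list, and values of both lists are set side by side without a comparison of height. Positions are on hg19, counting from 1. Of the lung epithelial markers looked up, the keratin genes KRT7, KRT8 and KRT18 had peaks in both lists and CDH1 in A549, while NKX2-1, SFTPB, SFTPC, KRT19 and EPCAM had no listed peak. The monocyte marker CD14 had a peak in A549 and the collagen gene COL1A1 in both lists. Their part in the results was not tested.

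The m6A mark is placed by a methyltransferase complex built around METTL3 and METTL14, is most frequent near stop codons and in 3′ UTRs, and is read by proteins that act on the decay, splicing and translation of the RNA. SLC31A1 (CTR1) is the high-affinity copper uptake transporter of the plasma membrane and a described route of cisplatin entry. LRRC8A is the obligatory subunit of the volume-regulated anion channel, which also lets cisplatin in. ABCC1 (MRP1) and ABCC5 (MRP5) are ATP-driven efflux pumps. ABCC1 exports glutathione conjugates and many drugs, and ABCC5 exports cyclic nucleotides and nucleotide analogues.

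To compare positions, the peaks of both lists were joined into sites wherever they had 1 or more exonic bases of the same strand in common, and the sites of a gene were numbered by position. The 4 genes had 13 sites. Of these, 7 held peaks of both lists, 4 held peaks of A549/DDP alone and 2 held peaks of A549 alone. Over all genes there were 14830 sites, of which 51.0% held peaks of both lists, 30.3% of A549/DDP alone and 18.7% of A549 alone. Counted as peaks, 24 of the 30 A549/DDP peaks overlapped an A549 peak, beside 67.2% of all A549/DDP peaks. Of the 28 A549 peaks, 20 overlapped an A549/DDP peak, beside 78.0% of all A549 peaks. These counts are not independent, because isoforms of ABCC1 and LRRC8A each carried their own version of a peak. Joined within each list, the peaks formed 12 separate regions in A549/DDP and 9 in A549, covering 2999 and 3329 exonic bases.

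The peaks were also sorted by the transcript region they touched. A 3′ UTR peak was present in both lists for SLC31A1, ABCC1 and LRRC8A, as for 78.2% of the genes that both lists hold, and a coding peak in both for ABCC1 and LRRC8A, as for 65.1% of them. In A549/DDP 25 of the 30 peaks touched a 3′ UTR, 7 touched coding sequence and 2 touched a 5′ UTR, while of all peaks of that list 50.4%, 65.2% and 13.6% did. In A549 17 of the 28 touched a 3′ UTR, 20 touched coding sequence and 0 touched a 5′ UTR, beside 56.0%, 64.5% and 8.42% of all its peaks. The 20 coding peaks of A549 were 13 versions of ABCC1 peaks on several isoforms and 7 of LRRC8A. No peak of another gene, on either strand, lay within the span of the sites of a member gene.

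**Figure D1:**
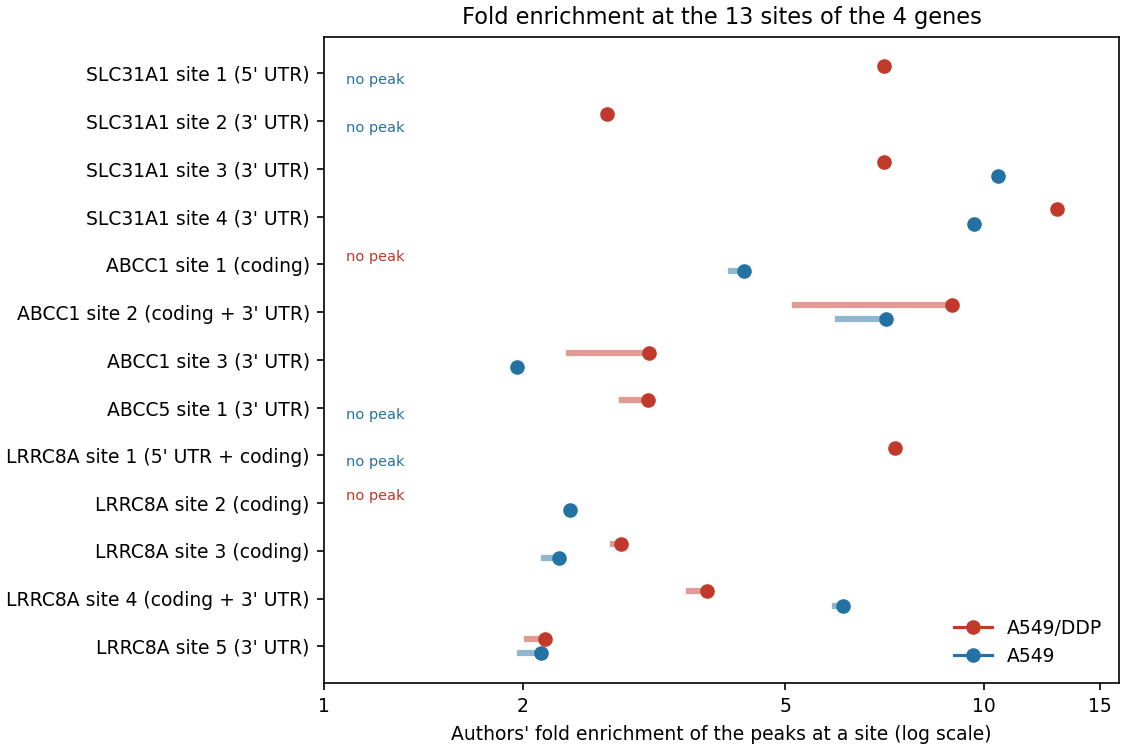
The authors' fold enrichment (log axis) at each of the 13 sites of the 4 genes, with A549/DDP in red and A549 in blue. The point is the highest fold of the peaks at a site and the bar reaches down to the lowest; folds ran from 1.96 to 12.9, and "no peak" marks the 6 sites listed for a single line.

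SLC31A1, the uptake transporter, had 4 peaks at 4 sites in A549/DDP and 2 peaks at 2 sites in A549, and both A549 sites were also present in A549/DDP. Its strongest peak by p lay in the 3′ UTR of transcript ENST00000374212.4, which is listed with 4744 bases. In A549/DDP this peak covered 210 bases (chromosome 9, 116023252 to 116023461) with a fold of 7.04 and the authors' p = 1.58e-11. In A549 it began at the same base and covered 448 (to 116023699), with a fold of 10.5 and the authors' p = 2.00e-20. The A549/DDP peak was therefore contained whole in the A549 peak, which ran 238 bases further towards the 3′ end.

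The SLC31A1 3′ UTR site farthest downstream was also present in both lists, with the boundaries displaced. In A549/DDP it ran from 116026295 to 116026474, with a fold of 12.9 and the authors' p = 0.000166. In A549 it ran from 116026414 to 116026593, with a fold of 9.64 and the authors' p = 6.31e-07. Each peak covered 180 bases, and they shared 61. The fold of 12.9 was the highest of any peak of the 4 genes and exceeded 90.9% of the A549/DDP list, yet 79.5% of that list had the same or a smaller p.

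The other SLC31A1 sites were in A549/DDP alone. A peak of 59 bases lay in the 5′ UTR of the short transcript ENST00000374210.6, listed with 753 bases (115983866 to 115983924, fold 7.04, the authors' p = 1.55e-05). This fold and p were carried by 16 peaks of 14 other genes in the same list, so the pair of values is not particular to SLC31A1. A weak peak of 90 bases lay in the 3′ UTR upstream of the shared site (116022924 to 116023013, fold 2.68, the authors' p = 0.000759). The median smallest p of the 4496 A549/DDP sites without an A549 peak was 9.55e-05, beside 1.58e-12 at sites in both lists. The 5′ UTR site was thus stronger, and the 3′ UTR site weaker, than the median site of A549/DDP alone.

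LRRC8A, the channel subunit, had 10 distinct peaks in each line, which formed 4 separate regions in each. Its 5 sites comprised 3 in both lists, 1 in A549/DDP alone and 1 in A549 alone. The site with the smallest p in either line lay at the 3′ end of the coding sequence. In A549 its 3 peaks covered 359 bases together (chromosome 9, 131678529 to 131678887), touched both coding sequence and 3′ UTR, and had folds from 5.94 to 6.11 with the authors' p = 5.01e-16. In A549/DDP the 3 peaks covered 186 bases (131678664 to 131678849), were labelled 3′ UTR, and had folds from 3.57 to 3.80 with a smallest p of 4.47e-09. The A549/DDP bases all lay inside the A549 peaks and made up 51.8% of them. On the same transcript the A549/DDP peak began 120 bases further downstream in ENST00000259324.5 and ENST00000372599.3, and 149 bases in ENST00000372600.4.

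The remaining shared LRRC8A sites were weaker by fold. A coding site began at 131671427 in both lists and continued, on 1 or more transcripts, over a splice junction. It reached 65 bases into that exon in A549/DDP (folds 2.74 to 2.82) and 6 bases in A549 (folds 2.15 to 2.27). The 3′ UTR site farthest downstream covered 160 bases in A549/DDP (131679473 to 131679632, folds 2.03 to 2.16) and 121 bases in A549 (131679423 to 131679543, folds 1.98 to 2.13), with 71 bases in common.

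The site that LRRC8A had in A549/DDP alone lay on the start codon side. Its peak of 180 bases consisted of 3 blocks of 50, 107 and 23 bases (131644480 to 131644529, 131648294 to 131648400 and 131669436 to 131669458). It touched 5′ UTR and coding sequence, was listed on ENST00000372600.4, and had a fold of 7.33 with the authors' p = 2.57e-06. This was the highest fold of LRRC8A in that list and exceeded 80.5% of its peaks. By p it ranked lower, as 60.4% of the A549/DDP list had the same or a smaller p. Of the A549/DDP sites without an A549 peak, 26.8% had the same or a smaller p. The site in A549 alone was a coding peak of 61 bases (131670069 to 131670129, fold 2.36, the authors' p = 0.00288), and 98.7% of the A549 list had the same or a smaller p.

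SLC31A1 and LRRC8A were thus the members with a 5′ UTR peak, and each had it in A549/DDP alone. Over the 5524 genes present in both lists, such a peak was found for 596 (10.8%) in the A549/DDP list but not the other, for 2.03% in the A549 list but not the other, and for 14.4% in each. The members were chosen with these peaks already known, so their number is a description.

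ABCC1, the efflux pump, had the peaks of smallest p among the 4 genes, though not of highest fold, and the most transcripts with a peak. It had 13 distinct peaks in A549/DDP and 16 in A549, on the same 7 transcripts. Of the genes in each list, 5.45% had as many peaks or more in A549/DDP and 2.87% in A549. These counts include versions of a peak on several isoforms. Joined within each list, the ABCC1 peaks formed 3 separate regions in each line. The main site of ABCC1 ran from the stop codon into the 3′ UTR (chromosome 16). In A549 it covered 1539 unbroken bases (16235094 to 16236632), with folds from 6.00 to 7.11 and a smallest p of 1.00e-202, a value that 1.15% of the A549 list reached. In A549/DDP it fell into separate stretches of 523 bases (16235124 to 16235646) and 940 bases (16235693 to 16236632).

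The upstream stretch of ABCC1 in A549/DDP had folds from 5.17 to 5.36 and a smallest p of 2.00e-30, and the downstream stretch had folds from 8.54 to 8.95 and a smallest p of 3.16e-56. On each of the 6 long transcripts a single A549 peak thus lay over a pair of A549/DDP peaks with 58 or 59 bases between them. Counted over rows, each a pair of peak and transcript, 746 of 21554 A549 rows that overlapped an A549/DDP peak of the same transcript (3.46%) overlapped more than 1. The reverse, an A549/DDP row over more than 1 A549 peak, was found for 3.72% of 21482. Together the A549/DDP stretches covered 95.1% of the A549 bases of the site.

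The ABCC1 site also began a little further upstream in A549. Its start lay 29 or 30 bases further upstream than in A549/DDP on 6 of the 7 transcripts, and at the same base on ENST00000345148.5. Of the 7 A549 peaks at this site 6 touched coding sequence, and of the 7 A549/DDP peaks of the upstream stretch 3 did. A displacement of 30 bases also occurred at the downstream 3′ UTR site, which covered 133 bases in A549 (16236799 to 16236931, fold 1.96, smallest p 2.51e-13) and 103 in A549/DDP (16236829 to 16236931, folds 2.35 to 3.10, smallest p 1.51e-05). Peak starts moved in such steps throughout. Of 9822 pairs of unspliced overlapping same-transcript peaks with different starts, 95.6% had starts a multiple of 30 bases apart (within 2). A start shift of 30 bases is therefore the smallest step seen regularly in these lists.

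Within the coding sequence ABCC1 had a site in A549 alone. It held 7 peaks, 1 on each of the 7 transcripts, spliced over up to 5 blocks and covering 308 exonic bases between 16184437 and 16205273. The blocks of 91 bases (16196484 to 16196574) and 136 bases (16200595 to 16200730) made up most of it. The folds ran from 4.13 to 4.32 and exceeded 55.6% to 58.6% of the A549 list. The smallest p was 1.58e-18, and 23.4% of that list had the same or a smaller p. Among the 2774 A549 sites without an A549/DDP peak, 80 (2.88%) had the same or a smaller p, and the median smallest p was 0.000145. In A549/DDP 0 peaks were listed there, and the same 7 transcripts carried versions of the 3′ UTR peaks. Such versions do not show that each transcript was present, and the cause was not tested. Among genes held by both lists, a purely coding peak was listed in A549 alone for 8.11%, ABCC1 included, and in A549/DDP alone for 8.85%.

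**Figure D2:**
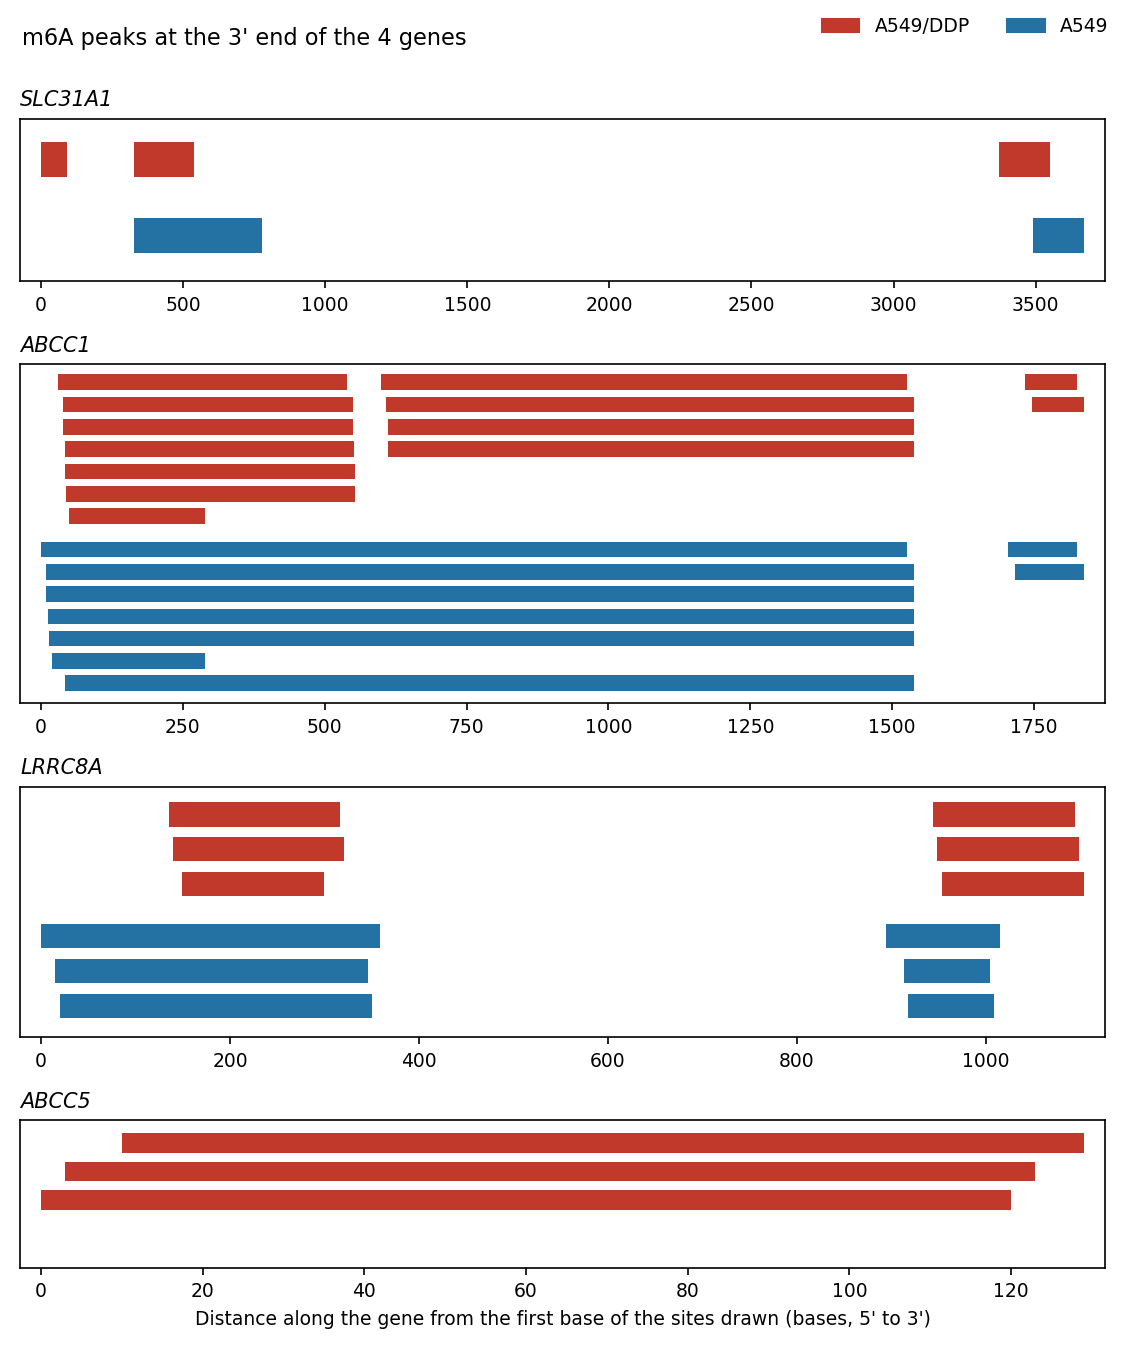
Distinct m6A peaks at the 3′ end of each gene, drawn to scale along the gene in bases from the first base of the sites shown (5′ to 3′; each panel has its own scale), with A549/DDP in red and A549 in blue. Each bar is 1 peak: the ABCC1 bars of A549 run unbroken over a site that is split in A549/DDP. At the shared SLC31A1 and LRRC8A sites the bars overlap with displaced ends. The SLC31A1 bar farthest upstream and the ABCC5 bars are of A549/DDP alone.

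ABCC5, the efflux pump for nucleotide analogues, was the member with peaks in A549/DDP alone, as were 1502 of the 7952 genes (18.9%). The other genes were in both lists (69.5%) or in the A549 list alone (11.6%). ABCC5 had 3 overlapping 3′ UTR peaks of 119 or 120 bases, 1 on each of 3 transcripts, at a single site of 129 bases (chromosome 3, minus strand, 183702310 to 183702438). Their folds were 2.83, 3.09 and 3.09, and the smallest of the authors' p was 0.000603. These were weak values: 88.2% of the A549/DDP list had the same or a smaller p, and the 0.000603 peaks had the same fold and p as 13 peaks of 12 other genes. Of these 1502 genes, 450 (30.0%) likewise had 3′ UTR peaks and no others. Among them all, 21.8% had a smallest p as large or larger, and the median was 4.07e-05. The lists do not tell whether the ABCC5 transcript was present in A549.

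Identical pairs of fold and p were frequent in general. In A549/DDP 11 of the 30 member peaks had the pair of another gene's peak, beside 39.8% of all peaks. In A549 7 of the 28 did, beside 38.1%. The ABCC1 peaks at the stop codon, in either list, and the 3′ UTR peak of SLC31A1 with the smallest p had values found in no other gene.

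**Figure D3:**
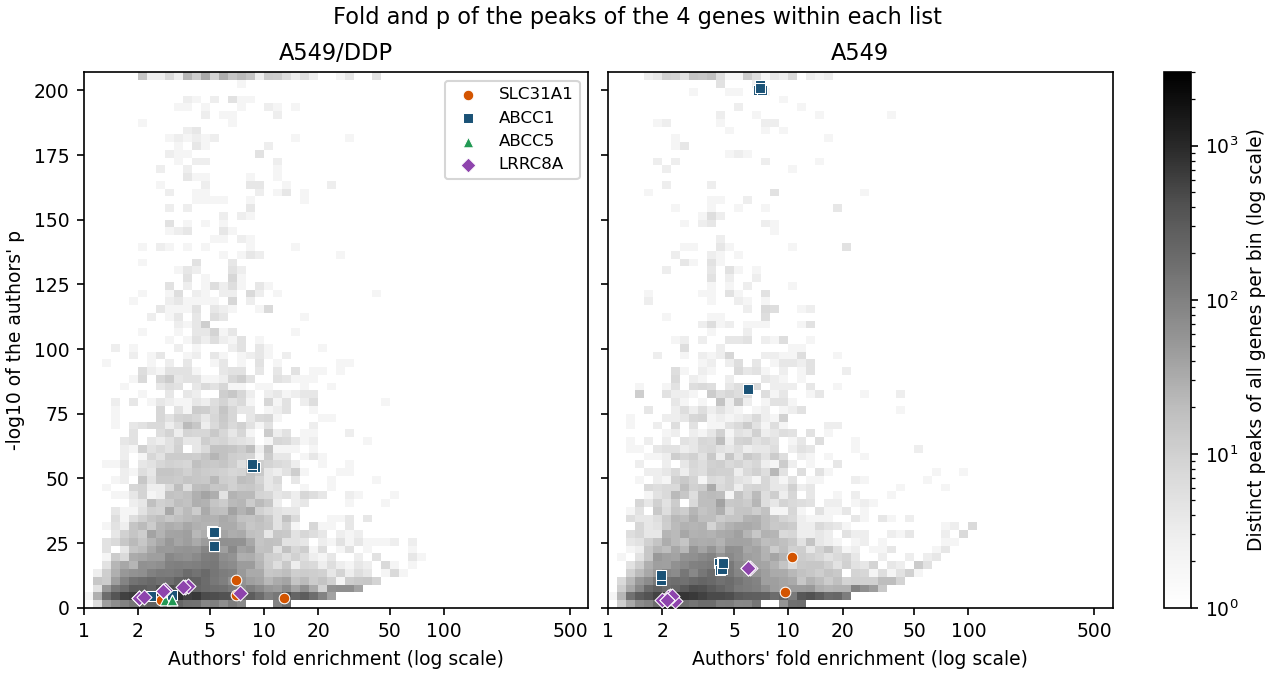
The authors' fold (x, log axis) against −log10 of the authors' p (y) for the distinct peaks of the 4 genes (coloured marks) over the number of peaks of all genes (grey, log scale) in A549/DDP (left) and A549 (right). Of the coloured marks, the peaks of the main ABCC1 site stand highest in both panels, and ABCC5 lies low in the left panel. The top grey row gathers all smaller p, and 239 and 169 peaks with p listed as 0 are left out.

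The members were then placed among 29 genes of copper transport, organic cation transport, ATP-driven efflux, the volume-regulated anion channel and other proteins named in platinum transport. A peak was listed for 16 of them, in both lines for 13 (81.2% of the 16) and in A549/DDP alone for 3 (18.8%), while 0 had a peak in A549 alone. These 16 genes had 31 sites, 17 of them (54.8%) with peaks of both lists, 8 of A549/DDP alone and 6 of A549 alone. Over all genes the shares were 69.5% in both lists, 18.9% in A549/DDP alone and 11.6% in A549 alone. Over all sites they were 51.0%, 30.3% and 18.7%.

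In the copper group, ATOX1, the chaperone that hands copper to the exporting ATPases, had 7 peaks in A549/DDP and 4 in A549. The A549/DDP peak of smallest p ran across 5′ UTR, coding sequence and 3′ UTR (chromosome 5, 151125828 to 151131987, fold 8.21, the authors' p = 1.00e-47). In A549 the 4 peaks were labelled 3′ UTR, and the strongest had a fold of 2.22. Each ATOX1 peak overlapped a peak of the other list, and all of them joined into 1 site. CCS, the copper chaperone of superoxide dismutase, had 1 overlapping peak in each line (folds 3.03 and 4.24). COX17, which delivers copper to cytochrome c oxidase, had peaks in A549/DDP alone (fold 2.27, the authors' p = 1.26e-12). SLC31A2 and the exporters ATP7A and ATP7B had no listed peak.

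The volume-regulated anion channel was the group in which all 5 genes had a peak. LRRC8C had its peak in A549/DDP alone, across the stop codon (chromosome 1, 90180151 to 90180600, fold 9.97, the authors' p = 2.24e-08). LRRC8B had 4 peaks in each line around its stop codon and 3′ UTR, with highest folds of 11.7 and 14.0. LRRC8D, the subunit known for carrying cisplatin together with LRRC8A, had 4 peaks in A549/DDP and 2 in A549. Of the A549/DDP peaks, 3 were labelled coding alone, and 2 overlapped the A549 peaks at 1 site by the stop codon. The other A549/DDP peaks, with that of smallest p (fold 5.21) among them, formed 1 site in A549/DDP alone. LRRC8E was the gene of the list with peaks in both lines and no common site: its peaks were coding in A549/DDP (chromosome 19, 7963966 to 7964176 at the smallest p, fold 3.99) and 3′ UTR in A549 (7966781 to 7966901, fold 10.7). At least 1 overlapping peak was found for 12 of the 13 transport genes listed in both lines and for 95.5% of all genes listed in both.

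Among the efflux pumps, ABCC3 and ABCC4 had peaks in both lines beside ABCC1. The ABCC3 3′ UTR peak covered 91 bases with a fold of 18.8 in A549/DDP, and 180 bases with a fold of 2.75 in A549. The authors' p was 7.59e-06 at the former and 5.01e-19 at the latter. ABCC3 also had 2 coding peaks in A549, at 1 site without an A549/DDP peak. ABCC4, which exports cyclic nucleotides, had peaks at its 5′ end with the authors' p = 0.00162 in both lists. ABCB1, ABCC2, ABCC6, ABCC10 and ABCG2 had no listed peak. Of the organic cation transporters, SLC47A1 had a 3′ UTR peak in both lines (folds 2.76 and 2.48), and SLC22A2, SLC22A3 and SLC47A2 had none. TMEM205 and the major vault protein gene MVP had peaks in both lines, with highest folds of 2.52 in A549/DDP for each and of 2.02 and 3.37 in A549. AQP2 and AQP9 had no listed peak.

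**Figure D4:**
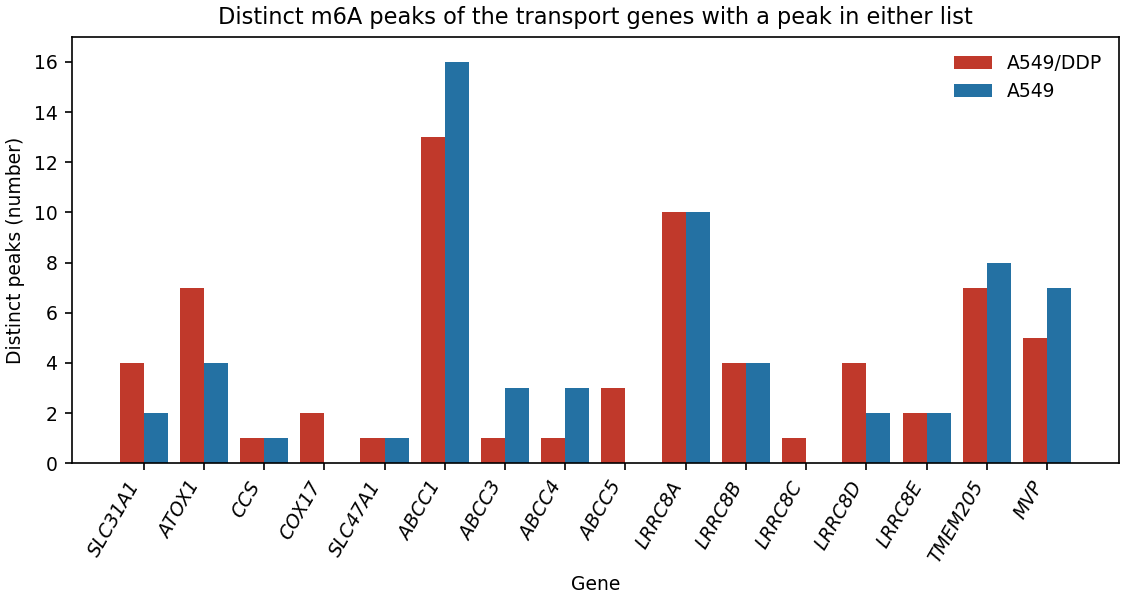
Number of distinct m6A peaks (y) of the 16 transport genes with a peak in either list (x), in A549/DDP (red) and A549 (blue). ABCC1 has the most peaks (13 and 16), LRRC8A has 10 in each line, and COX17, ABCC5 and LRRC8C have none in A549. Versions of a peak that differ between isoforms are counted separately.

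Genes with the same listing and the same set of transcript region labels in each list were ranked by the summed absolute difference in log2 of the highest fold, over the lists the member was in. For SLC31A1, 39 genes had the same labels, and DGKA (distance 0.18) and BCL7A (0.21) came nearest. For ABCC1, 33 genes did, with MELTF (0.28) and C19orf47 (0.69) nearest. LRRC8A shared its set of labels with 1 gene, ADD1, at a distance of 2.26. ABCC5, in A549/DDP alone with 3′ UTR peaks, had the labels of 449 other genes, with FMNL3 and ETV5 nearest at 0.0047 each. With at most 2 cell lines behind it, this likeness describes the lists alone.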

How the data were processed

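Per the labels' protocols, m6A fragments were pulled down with an antibody, and a stranded mRNA kit was used for both pull-down and input libraries. HISAT2 and the build hg19 are named in the submitters' processing notes. The sources used here give no peak caller, threshold, library scaling or annotation release. Each line has 1 peak list deposited by the authors, taken here as pull-down against input. The fold enrichment is the authors' linear ratio for a peak. The deposited p-value of a peak carries no statement on adjustment. Depth is unknown.

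Peaks were collapsed, joined and overlapped by exonic bases with Python 3.11.15 and pandas 2.3.3. The overlap code was tested on simulated data: of 40000 pairs, 292 overlapped and 0 were wrong. Of 7957 symbols, 7829 matched a GRCh38.p14 gene table used for names. Sequences under the peaks are not analysed here. The transport list was fixed with 1 further gene, which is not reported here. The members and gene lists were chosen with earlier results of these data known. The naming rule took all members, all transport genes with a peak and the 2 nearest genes by likeness; transport genes without a peak and the markers are named besides. Alternatives were folds of at least 5 or 2, the 13659 strongest distinct peaks of each list by p, other overlap rules, rows as deposited and merged regions.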

Additional observations from a re-analysis of the deposited data

How the results depend on the processing

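With a fold of at least 5, the 4 genes kept 15 peaks in A549/DDP and 12 in A549, 13 and 9 of them shared. ABCC5 then had 0 peaks, 2 members had a 3′ UTR peak in A549/DDP, and 5 transport genes were listed in both lines, 4 in A549/DDP alone and 1, ABCC4, in A549 alone, beside 48.9%, 31.0% and 20.2% of all genes. With the 13659 strongest peaks of each list, 12 A549/DDP peaks were left and all 12 were shared. In A549 20 peaks were left, of which 8 were shared. LRRC8A and ABCC5 then had 0 A549/DDP peaks, so that 0 members had a 5′ UTR peak, 1 a coding peak and 2 a 3′ UTR peak there. Of the 9 transport genes left, 5 were listed in both lines, 1 (COX17) in A549/DDP alone and 3 (CCS, ABCC3 and LRRC8A) in A549 alone, beside 64.7%, 16.3% and 18.9% of all genes at this setting. The cause was not tested. In the full lists CCS, ABCC3 and LRRC8A also had A549/DDP peaks, which fell below this limit, and COX17 had no A549 peak. A reciprocal overlap of 50% left 13 A549/DDP peaks and 15 A549 peaks shared, and merging left 12 and 9 regions. The shares of all peaks that were shared at these settings are not given here, so the shared counts describe the 4 genes alone. A fold of at least 2, a covered share of 50% of the peak, overlap over genomic spans and rows as deposited moved none of the summary counts beyond 1.5 times. No paired analysis was possible because each line had 1 pull-down and 1 input library and no test was made, and for the same reason no replicate could be left out.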
